A study of Mus with 4 samples.

Results

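Adenosine is made from ATP at the cell surface, taken up or broken down inside the cell, and sensed by 4 receptors. The 10 genes described here cover these steps: the enzymes of adenosine and inosine Ada, Adk and Pnp, the surface proteins Nt5e, Entpd1 and Dpp4, and the receptors Adora1, Adora2a, Adora2b and Adora3. They were measured in a murine podocyte cell line in which a lentivirus carried either the active OASIS, a transcription factor encoded by Creb3l1, or the fluorescent protein Venus. The genes were chosen from the measured values of these same arrays, with the difference between the OASIS and Venus arrays known. Their differences are therefore given as a description, with no test. Of the 26893 gene symbols on the array, these are 10, and of its 56605 probes they hold 19.

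The study asked which genes respond to OASIS in podocytes, the epithelial cells that wrap the capillaries of the kidney filter. The cells were of 1 immortalized line, differentiated at the nonpermissive temperature before the experiment. The Venus group had 2 samples, exposed for 24 h to the lentivirus for Venus, and the OASIS group had 2 samples exposed for as long to the lentivirus for active OASIS. RNA was extracted at 48 h from the start of lentivirus treatment, so the kind of vector and the exposure time are shared by all 4 samples. The groups differ in the inserted sequence. The study gives the virus dose as a range and does not say that it was equal in both groups. The labels give each group a sample 1 and a sample 2 but do not say whether these were separate cultures, so that p-values measure only the spread between these samples, which may be technical.

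As background, extracellular ATP is trimmed to AMP by the surface enzyme encoded by Entpd1 (CD39), and AMP is turned into adenosine by the one encoded by Nt5e (CD73). Adenosine deaminase, the product of Ada, turns adenosine into inosine, while adenosine kinase returns it to AMP, and purine nucleoside phosphorylase splits inosine further. Of the receptors, those of Adora2a and Adora2b raise cyclic AMP and those of Adora1 and Adora3 lower it. In the kidney, adenosine is known for its control of blood flow through the glomerulus.

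Each sample was read on its own 1-colour array. Between 33938 and 34418 of 59305 spots were well above background on each array, and 0 were saturated. Across the 31598 probes tested, which are not independent, the replicate arrays correlated with Pearson's r of 0.9969 (Venus) and 0.9946 (OASIS), and arrays of unlike groups with 0.9732 to 0.9783. Values below are log2 intensities relative to the 75th percentile of their array, so that 0 stands for that percentile. They compare a probe with itself across arrays, and not one gene with another. With 2 arrays against 2, an exact permutation test cannot give a two-sided p below 0.333. Of 13 podocyte markers, 10 were well above background on all 4 arrays, among them Wt1, Podxl and Synpo. Ptpro was not well above background on any array and Nphs1 did not pass the filter. Wt1 was dim with Venus, at -5.77 and -5.29, where the dimmest signals well above background were -6.10 and -6.15. As intensities it read 16.9 and 25.2 with Venus and 563 and 464 with OASIS. The summed linear level of the podocyte markers was 78.7 to 81.4 on the Venus arrays and 73.6 to 79.8 on the OASIS arrays, in units of the percentile. The single Creb3l1 probe showed no rise with OASIS, with a log2 difference of -0.17 (limma adjusted p = 0.298). Where on the transcript it lies was not analysed here. The study followed OASIS as protein, with an immunoblot at 48 h, and describes these podocytes as overexpressing it.

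Ada and Adora2b were the genes of the set that differed most, both higher with OASIS. Ada was 4.61-fold higher by its brightest probe and Adora2b was 6.27-fold higher. Pnp, Nt5e and Adk lay higher by less than the 2-fold limit of the study, Dpp4 and Adora2a lay lower by less than that limit, and the groups overlapped for Adora1. No probe of Entpd1 or Adora3 was well above background on any array. Of the 19 probes, 9 were well above background on all 4 arrays, 3 on some arrays and 7 on none, and 10 probes for 8 of the genes met the filter, which asks for a signal well above background on every array of 1 group or more.

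**Figure D1:**
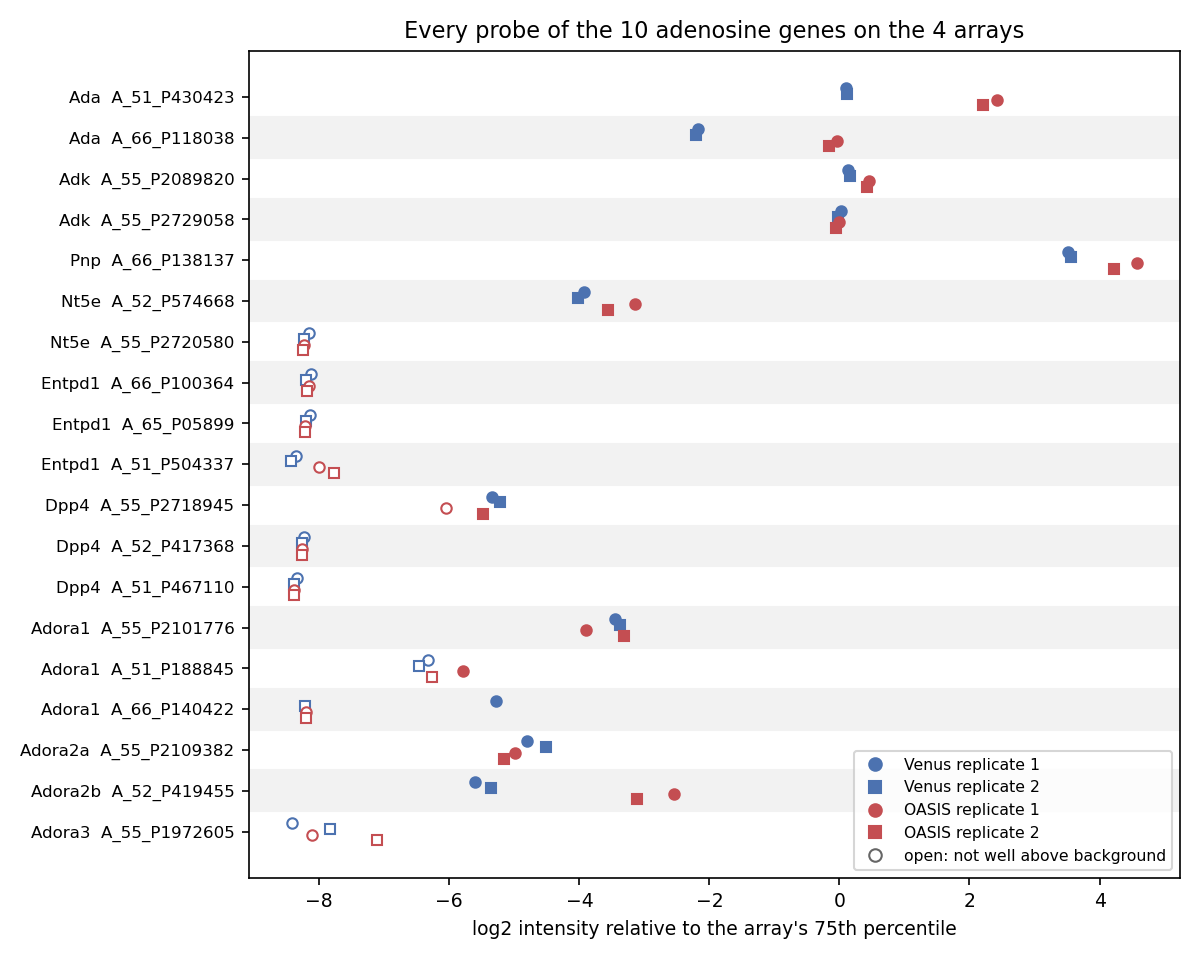
Log2 intensity relative to the 75th percentile of the array (x axis) for each of the 19 probes of the 10 adenosine genes (rows), with 1 point for each of the 4 arrays and open points where the probe was not well above background. Both Ada probes and the Adora2b probe sit clearly to the right on the OASIS arrays, while Entpd1 and Adora3 have open points only.

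Adenosine deaminase had 2 probes, both assigned to RefSeq transcript NM_007398, in band qH3 of chromosome 2. The brighter probe, A_51_P430423, gave 0.099 and 0.12 with Venus and 2.42 and 2.21 with OASIS. Its lowest OASIS value lay 2.09 above its highest Venus value, against an SD of 0.016 between the Venus arrays and 0.14 between the OASIS arrays (n = 2 each). The log2 difference was 2.20 (standard error 0.12), and 309 of the 16318 genes tested had a larger one. The dimmer probe, A_66_P118038, gave -2.18 and -2.20 with Venus and -0.041 and -0.15 with OASIS. Its log2 difference was 2.09 (standard error 0.10), a fold of 4.26, so that both probes gave nearly the same change at different brightness. Neither Ada probe had overlapping groups.

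Adk, which encodes adenosine kinase and lies on chromosome 14 in band qA3, had 2 probes that did not move together. A_55_P2089820, annotated to the RefSeq transcript NM_001243041, gave 0.13 and 0.16 with Venus and 0.46 and 0.42 with OASIS. Its groups did not overlap, and its log2 difference was 0.30 (standard error 0.098), a fold of 1.23. The other probe, A_55_P2729058, is annotated to an Ensembl transcript. It stayed between -0.057 and 0.025 on the 4 arrays, with overlapping groups and a log2 difference of -0.032 (standard error 0.10). Which transcript forms the probes read was not analysed here.

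Pnp encodes purine nucleoside phosphorylase, the step after adenosine deaminase, and lies on chromosome 14 in band qC1. Its single probe, A_66_P138137, gave 3.51 and 3.56 with Venus and 4.58 and 4.22 with OASIS. Both OASIS values were above both Venus values by at least 0.66, and the log2 difference was 0.86 (standard error 0.16), a fold of 1.82. Without OASIS replicate 2 the difference was 1.05, past the 2-fold limit. Pnp2, the neighbouring gene for a second phosphorylase of the same kind, had values from -5.20 to -4.73 and a log2 difference of 0.35. Whether the probes of Pnp and Pnp2 can read each other's transcript was not analysed here.

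Nt5e, on chromosome 9 in band qE3.1, encodes the surface enzyme that releases adenosine from AMP. Its probe for the RefSeq transcript, A_52_P574668, gave -3.92 and -4.03 with Venus and -3.14 and -3.56 with OASIS. The groups lay 0.37 apart at their nearest, and the log2 difference was 0.62 (standard error 0.17), a fold of 1.54. Another background correction, normexp, brought it to 0.29. A further Nt5e probe, annotated to an Ensembl transcript, was not well above background on any array.

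Entpd1, on chromosome 19 in band qC3, encodes the enzyme that supplies AMP to the product of Nt5e. None of its 3 probes was well above background on any array, so that no difference can be given. Probe A_51_P504337 had corrected intensities of 2.82 and 2.87 with Venus and 3.74 and 4.43 with OASIS. All probes of the set that were never well above background had intensities between 2.70 and 6.97, and they have no order within this range.

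Dpp4, on chromosome 2 in band qC1.3, encodes a surface peptidase that in humans is known to hold adenosine deaminase at the membrane. Its brightest probe, A_55_P2718945, annotated to an Ensembl transcript, gave -5.34 and -5.23 with Venus and -6.05 and -5.48 with OASIS. OASIS replicate 1 was not well above background. The log2 difference was -0.48 (standard error 0.22), the groups lay 0.13 apart, and without OASIS replicate 1 the difference shrank to -0.19. The 2 probes annotated to the RefSeq transcript of Dpp4, NM_010074, were not well above background on any array.

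Adora2b encodes the adenosine receptor of lower affinity that couples to cyclic AMP production, and lies on chromosome 11 in band qB2. Its single probe, A_52_P419455, gave -5.60 and -5.35 with Venus and -2.55 and -3.11 with OASIS, well above background on all 4. As corrected intensities these were 19.1 and 24.1 against 163.5 and 112.4. The OASIS arrays were thus far above the Venus arrays, with a gap of 2.25 between the nearest values. The group means were -5.48 ± 0.17 (SD, n = 2) with Venus and -2.83 ± 0.40 (SD, n = 2) with OASIS. The log2 difference was 2.65 (standard error 0.22), a fold of 6.27, and 224 of the 16318 genes had a larger one. The size of this difference depends on the background correction, since normexp, which adds an offset to every spot, gave 1.19 on the log2 scale.

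Adora2a, on chromosome 10 in band qC1, encodes the other receptor that raises cyclic AMP, and did not move with Adora2b. Its probe, A_55_P2109382, gave -4.80 and -4.51 with Venus and -4.98 and -5.15 with OASIS. The groups lay 0.18 apart, with OASIS lower, and the log2 difference was -0.41 (standard error 0.15), a fold of 0.751. Adora1, on chromosome 1 in band qE4, encodes a receptor that lowers cyclic AMP. Its brightest probe, A_55_P2101776, gave -3.44 and -3.37 with Venus and -3.90 and -3.31 with OASIS. The Venus values thus lay between the OASIS values. Its log2 difference was -0.19 (standard error 0.22), and it turned to 0.096 without OASIS replicate 1.

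The 2 other Adora1 probes did not meet the filter. A_51_P188845 was well above background on OASIS replicate 1 alone, with intensities of 11.5 and 11.2 with Venus and 17.4 and 12.6 with OASIS. A_66_P140422 was well above background on Venus replicate 1 alone, where it read 23.8 against 3.33, 3.24 and 3.28 on the other arrays. Adora3, on chromosome 3 in band qF2.2, encodes the second receptor that lowers cyclic AMP. Its probe, A_55_P1972605, was not well above background on any array, with intensities of 2.70 and 4.32 with Venus and 3.46 and 6.97 with OASIS. Adora2b was therefore the only receptor gene of the 4 with a probe past the limits of the study in limma, and with the methods' t-test it was not past them.

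**Figure D2:**
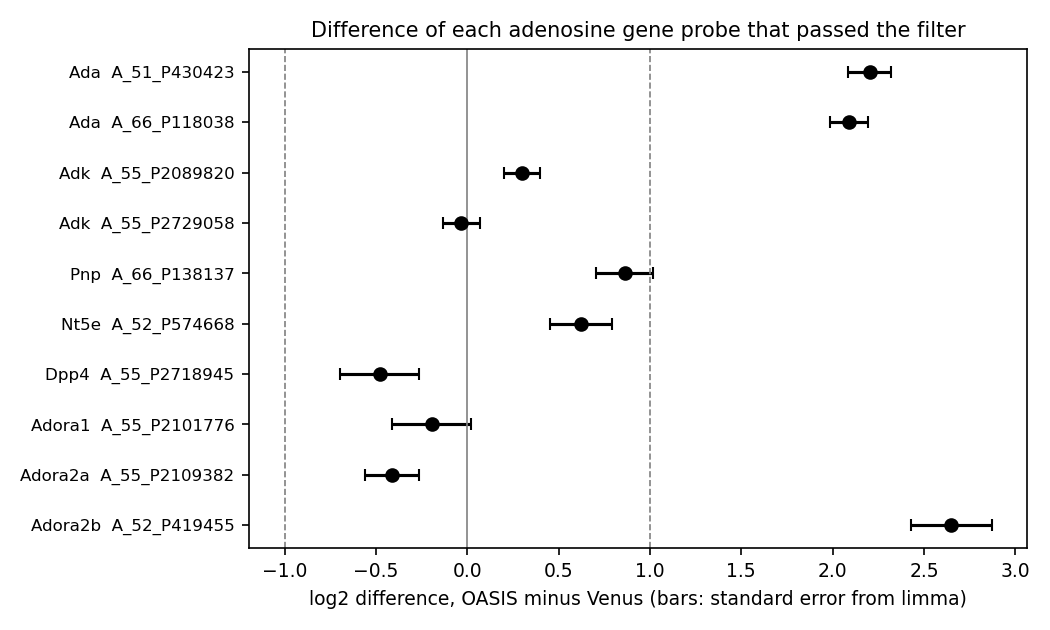
Log2 difference, OASIS minus Venus (x axis), of the 10 probes of adenosine genes that met the filter on background, with bars for the standard error from limma and dashed lines at the 2-fold limits. Both Ada probes (2.20 and 2.09) and the Adora2b probe (2.65) lie beyond the upper limit, and the other 7 probes lie within the limits.

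The limits of the study were a fold over 2.0 or under 0.5 with an adjusted p under 0.1. Past both limits lay 3 of the 10 probes, all higher with OASIS, where 5.89% of all probes tested lay higher past them. By the brightest probe of each gene these were 2 genes, Ada and Adora2b, where 6.21% of all genes tested were called higher and 1.85% lower. Of the 8 genes that met the filter, OASIS lay above Venus with no overlap in 5 and below it with no overlap in 2, where 31.5% and 39.4% of all genes did so. Because the genes were selected with these differences known, nothing is read from these counts. The median log2 difference of the 8 genes was 0.46, beside -0.056 over all genes tested. Of the 8 genes, 7 were well above background on all 4 arrays by their brightest probe, and Dpp4 passed the filter only through the Venus arrays, where it was brighter, so that its direction was favoured by the filter.

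In the Gene Ontology columns of the deposited table, 8 of the 10 genes carried the term plasma membrane, all but Adk and Pnp. The term cell surface was given to 5 genes, Ada, Adora2b, Dpp4, Entpd1 and Nt5e, and the term extracellular space to Ada and Entpd1. Both genes past the limits were thus annotated to the cell surface, as were Dpp4 and Nt5e, which were within them, and Entpd1, which had no measured level.

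Many of these genes are also known from leukocytes. Of 9 leukocyte markers, 6 were well above background on all 4 arrays by their brightest probe, Ptprc, Cd68, Csf1r, Itgam, Cd3e and Cd4. Adgre1 and Cd8a had probes that were not well above background on any array. The summed linear level of the leukocyte markers was 20.4 to 20.7 on the Venus arrays and 15.9 to 17.5 on the OASIS arrays. For 5 endothelial markers it was 0.036 to 0.044 with Venus and 0.046 to 0.048 with OASIS, where Cdh5, Kdr, Tek and Emcn were at background, that is not well above it on any array, and only Pecam1 was above it. For 4 mesangial and fibroblast markers it was 72.3 to 73.3 and 60.1 to 61.5, and for 7 tubule markers 32.8 to 42.5 and 33.8 to 51.4, in the same order. Bright probes carry these sums, and single markers could move otherwise. Past the limits in limma were Wt1 (log2 difference 4.62), Cd2ap (1.09) and Lrp2 (1.62), all higher with OASIS, and Pdgfra, at background on both Venus arrays, at least 7.96-fold higher. Pdgfra entered the comparison through the OASIS arrays alone, so that some difference was built in. All samples were of 1 podocyte line, so signal at these probes does not by itself show that other cell types were present. Whether such signal bears on the values of the adenosine genes was not tested. In bulk RNA, fewer cells of a type and less RNA per cell cannot be told apart.

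Around these 10 genes, 97 other genes of ATP, adenosine and purine handling were followed as a list, of which 73 met the filter. The list was also chosen with earlier results of these data known. Its counts and p-values are therefore a description, and nothing is read from them about the list as a whole. Past both limits of the study, 10 were higher with OASIS and 1 was lower in the comparison with limma, beside 6.21% and 1.85% of all genes. The median log2 difference of the 73 genes was 0.032. At the adjusted p alone, without the limit on fold, 20 genes were higher and 9 lower, beside 18.6% and 18.1% of all genes. Entpd8 and Panx2 among the higher genes, and Enpp3, the lower one, passed the filter only through the group where they are bright, so that some difference was built in. Of the 69 listed genes well above background on all 4 arrays, 8 were higher and 0 lower past the limits, beside 4.91% and 1.53% of such genes. At an unadjusted p under 0.05 in limma, 13 had lower values. The share of all genes at that p was not computed here, so nothing is read from this count. OASIS lay above Venus with no overlap in 29 genes and below it in 24, beside 31.5% and 39.4% of all genes.

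At the cell surface, the genes past the limits were Entpd8, which encodes a further ATP- and ADP-splitting enzyme, and Enpp3, for a nucleotide pyrophosphatase, and neither was well above background in both groups. Entpd8 was at background on both Venus arrays, again meaning not well above it, and was at least 1.32-fold higher with OASIS (limma adjusted p = 0.0346). That bound holds for the main background correction, and normexp gave Entpd8 a smaller log2 difference of 0.33. Enpp3 was at background on both OASIS arrays and was at least 1.11-fold lower with OASIS (limma adjusted p = 0.0464). No other probe of Entpd8 or Enpp3 was well above background on any array. Both calls were lost with normexp, with no filter on dim probes, and without a single array, OASIS replicate 1 for Entpd8 and any of Venus replicate 1, Venus replicate 2 and OASIS replicate 2 for Enpp3. Of the others, Entpd2 had a log2 difference of -0.31 and Alpl of -0.13, both with overlapping groups. Entpd3 and Enpp1 did not meet the filter.

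Inside the cell, 2 of 4 Entpd genes were past the limits and higher with OASIS, beside 6.21% of all genes. With 4 genes, nothing is read from this count. Entpd6, whose product splits nucleoside diphosphates in the secretory pathway and can be secreted, gave -2.58 and -2.84 with Venus and -0.15 and -0.82 with OASIS. It had a log2 difference of 2.23 (standard error 0.25) with a limma adjusted p of 0.00989, while the second probe had one of 2.02 and also passed the limits. Entpd7 rose by 1.05 (standard error 0.15, limma adjusted p = 0.0146), which was 0.89 without OASIS replicate 1 and 0.61 with normexp, both short of the limit. Entpd4 had a difference of 0.61 (limma adjusted p = 0.0498), under the 2-fold limit. Entpd5 had one of 0.063 with overlapping groups, and -0.042 without OASIS replicate 1.

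Among 5 nucleoside transporter genes that met the filter, Slc29a4 alone rose past the limits, beside 6.21% of all genes higher and 1.85% lower. Its product carries monoamines and, in acid surroundings, adenosine. It gave -2.70 and -2.16 with Venus and -0.14 and -0.39 with OASIS, a log2 difference of 2.17 (standard error 0.22, limma adjusted p = 0.00807). The equilibrative transporter genes Slc29a2 and Slc29a3 had differences of -0.68 (limma adjusted p = 0.0343) and 0.60 (limma adjusted p = 0.0239), both under the 2-fold limit and in opposite directions. Slc28a2 and Slc28a3, for concentrative transporters, did not meet the filter.

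In the conversion of AMP and adenosine, 1 of 14 genes measured passed the limits, beside 6.21% of all genes higher and 1.85% lower. This was Ak4, for a mitochondrial adenylate kinase. It gave -2.47 and -2.66 with Venus and -0.16 and -0.64 with OASIS, a log2 difference of 2.16 (standard error 0.20, limma adjusted p = 0.0068). Its dimmer probe, at background on both Venus arrays, was at least 1.79-fold higher and did not pass the limits (limma adjusted p = 0.053). Ampd3, for an AMP deaminase, had a difference of 0.94 (limma adjusted p = 0.0221), under the 2-fold limit with all arrays but 1.10 without Venus replicate 1 and 1.05 without OASIS replicate 2. Ak8 had -0.67.

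None of 5 cytosolic and mitochondrial 5'-nucleotidase genes and none of 7 salvage and breakdown genes passed both limits in limma. Of all genes, 6.21% were higher and 1.85% lower past these limits, so with so few genes nothing is read from this. At an unadjusted p under 0.05 the counts were 2 and 3 genes, and no share of all genes at that p was computed to set beside them. At the adjusted p alone, without the limit on fold, they were also 2 and 3, beside 18.6% of all genes higher and 18.1% lower. The largest differences were those of Nt5c3 (-0.40) and Nt5m (0.38) among the former, and of Xdh (-0.49), for the enzyme that makes uric acid, and Pnp2 (0.35) among the latter. The methods' t-test also called 0 of them.

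Of 13 genes of purine synthesis, Impdh1 alone rose past the limits, beside 6.21% of all genes higher and 1.85% lower. Its product opens the branch to guanine nucleotides. It gave 0.98 and 0.77 with Venus and 3.21 and 2.79 with OASIS, a log2 difference of 2.12 (standard error 0.18, limma adjusted p = 0.00645). Under the 2-fold limit were Prps1, for the enzyme that makes the ribose phosphate donor, at 0.84 (limma adjusted p = 0.0146), and Ppat, for the first committed enzyme, at -0.82 (limma adjusted p = 0.02). The Ppat difference depended on the processing and ranged from -0.93 to -0.0069 over all settings, while Prps1 ranged from 0.74 to 0.93.

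Of the nucleotide receptors and release channels, 10 of 18 genes met the filter, and P2ry6 and Panx2 were past the limits. Both were higher with OASIS, beside 6.21% of all genes higher and 1.85% lower. P2ry6, whose product is known as a receptor for UDP rather than ATP, gave -2.96 and -2.94 with Venus and 0.90 and 0.14 with OASIS. It had a log2 difference of 3.47 (standard error 0.27, limma adjusted p = 0.0055), and its dimmer probe one of 2.43, also past the limits. Panx2, for a member of the pannexin channel family, was at background on both Venus arrays and was at least 7.09-fold higher with OASIS (limma adjusted p = 0.00778). It entered this comparison through the OASIS arrays alone. The bound holds for the main processing only, and the lowest log2 difference of Panx2 over the alternatives was 1.29. Its second probe was well above background on 1 of the OASIS arrays only and was not tested. Panx1, the family member best known for ATP release, had a log2 difference of -0.70 (limma adjusted p = 0.0151), under the limit and opposite in sign to Panx2. P2rx3, for an ATP-gated channel, had -0.77, and -1.01 without Venus replicate 1, which was past the limits. Among the 8 genes that did not meet the filter were P2ry1, P2ry12 and P2ry13, for ADP receptors.

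Downstream of the receptors, 2 of 10 G protein and adenylate cyclase genes measured were higher past the limits, beside 6.21% of all genes. Gnai1, for an inhibitory G protein subunit through which Adora1 and Adora3 signal, gave -2.32 and -2.15 with Venus and -1.02 and -1.0 with OASIS, a log2 difference of 1.22 (standard error 0.11, limma adjusted p = 0.0069). Gnaq, for a subunit that activates phospholipase C, rose by 1.09 (standard error 0.15, limma adjusted p = 0.014), and by 0.92 without OASIS replicate 2, short of the limit. Adcy1, for an adenylate cyclase, had 0.72 (limma adjusted p = 0.0264) and Gnai3 had 0.19.

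**Figure D3:**
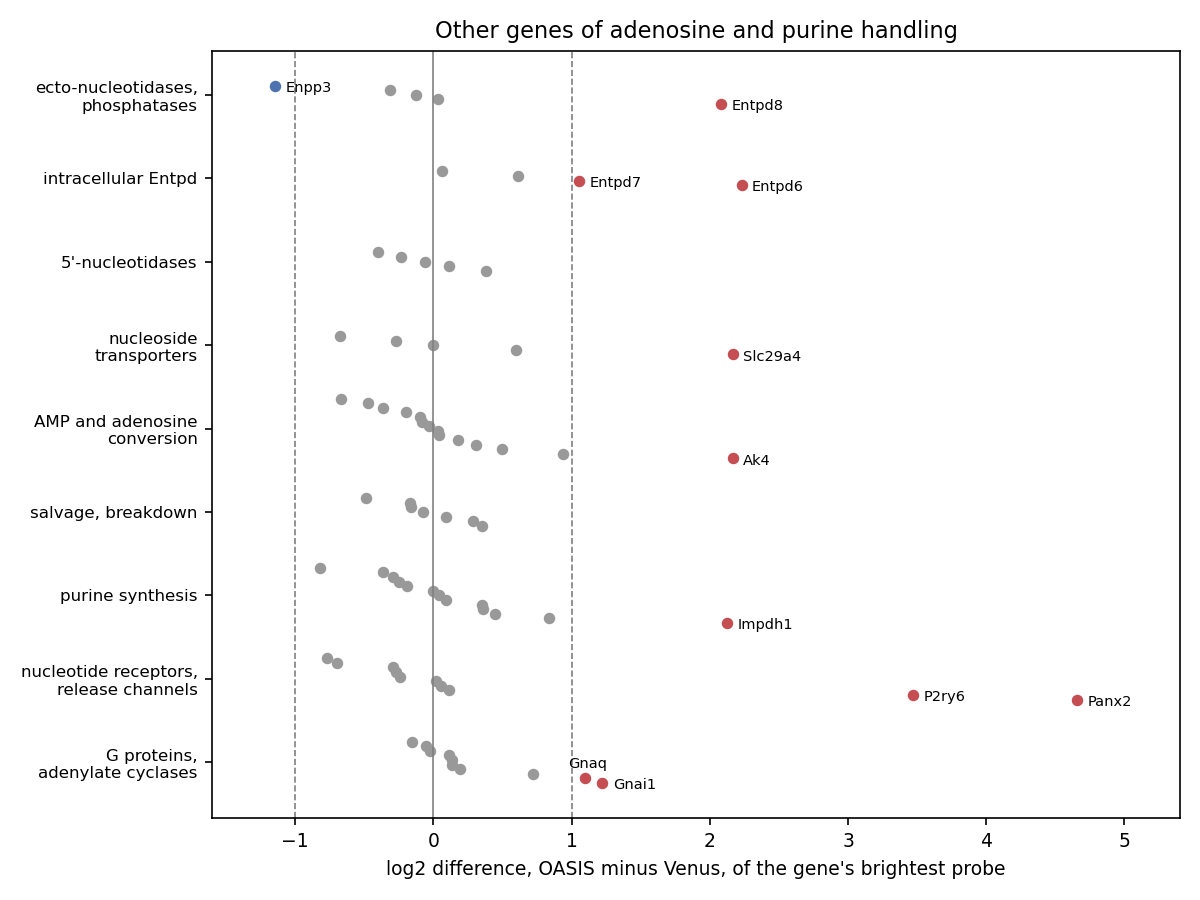
Log2 difference, OASIS minus Venus (x axis), of the brightest probe of the 73 measured genes of ATP, adenosine and purine handling that are not among the 10, grouped by role (rows), with dashed lines at the 2-fold limits and named points for genes past the limits of the study in limma. The 10 named points on the right are higher with OASIS and Enpp3 is lower, and the points of Entpd8, Panx2 and Enpp3 rest on groups that were not well above background, for which only bounds hold.

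The genes whose 4 values were most like those of the brightest Ada probe, each centred on its own mean, were Nr2f1, Gfpt1, Col7a1, Bdh2 and Tmem97. They were found by Euclidean distance among 15438 genes measured on all 4 arrays, and as Ada was chosen for this contrast they are a description. The distance was 0.041 for Nr2f1, an orphan nuclear receptor gene, and 0.046 for Gfpt1, for the entry enzyme of hexosamine synthesis. It was 0.079 for Col7a1, the gene of type VII collagen, 0.082 for Bdh2 and 0.090 for Tmem97. Gfpt1 gave 1.25 and 1.28 with Venus and 3.60 and 3.42 with OASIS, and the log2 differences of the 5 genes lay between 2.13 and 2.25.

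**Figure D4:**
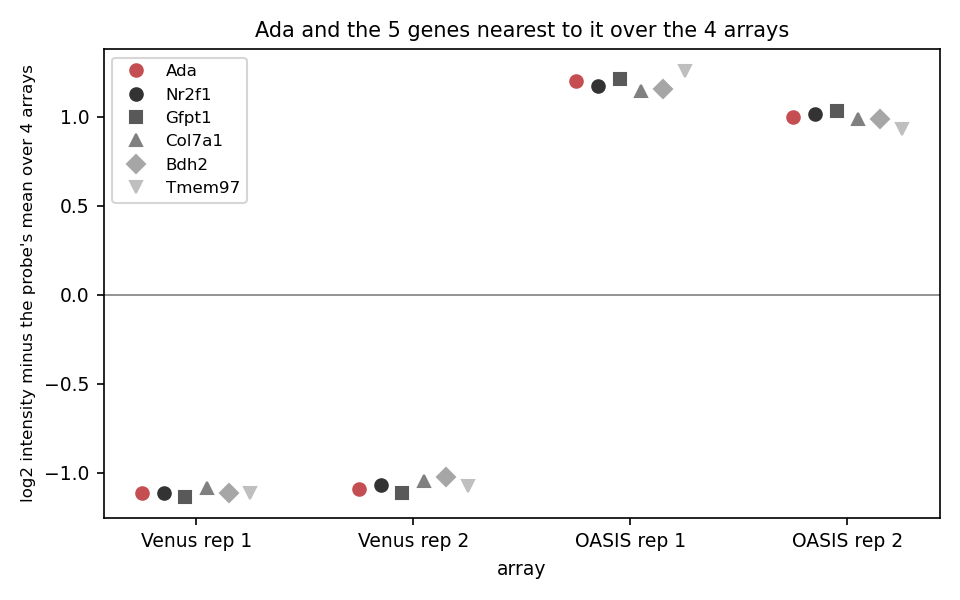
Log2 intensity minus the mean of the probe over the 4 arrays (y axis) for Ada and the 5 genes nearest to it, by array (x axis), with 1 point for each gene on each array. All 6 genes lie near the same value on each array, low on the Venus arrays and high on the OASIS arrays.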

How the data were processed

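Expression was measured on 4 Agilent 1-colour arrays of a mouse design (SurePrint G3 Mouse GE v2), 2 of Venus and 2 of OASIS samples. The authors deposited background-corrected spot intensities from Agilent Feature Extraction (version 12.1.0.3), with median spot and background intensities and marks for outlier and bright spots. They also deposited a sheet with this intensity times a factor of each array, a detection score per spot (used for no value), gene symbols and chromosome bands. How the factor was set is not given in the sources used here. The array design is of build mm9, for which no genome was used here, so bands are given and coordinates are not.

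Control and outlier spots were dropped, the 75th percentile of the remaining log2 intensities of an array was subtracted, and repeated spots were averaged by probe. A probe entered the comparison when both Venus arrays, or both OASIS arrays, held it well above background, and the brightest probe stood for its gene. A gene called at background in a group below is one not well above background on either of its arrays. For such genes the bound sets the mean of the bright group against a mean floor. On each dim array the floor is the probe itself or the dimmest signal well above background, whichever is higher. These bounds hold for the main background correction alone. OASIS was compared with Venus over all 31598 probes by lmFit and eBayes of limma (version 3.58.1; R version 4.3.3) with Benjamini-Hochberg adjustment. The limits on fold and adjusted p are those of the study's methods. The comparison was tested on simulated data.

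The 10 genes, the list of 97 genes and the marker lists were chosen with earlier results of these data known. Named were all 10 genes by every probe, each listed gene past the limits and at most 2 more per role with the largest differences, and the 5 genes nearest to Ada. Outside this rule, cell type markers and genes that did not meet the filter are named for their status, and markers past the limits with their values. Some markers of these lists are not reported here by name. Alternatives were quantile and median scaling, normexp, the authors' scaled intensities, other filters, kept outlier spots, averaged probes, the methods' t-test, eBayes with a trend, a stricter adjusted p (0.05), a replicate block, and each array left out. The number of arrays limits the precision. Slide and scan were shared by all 4.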

Additional observations from a re-analysis of the deposited data

How the results depend on the processing

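For the probes of the 10 genes, 117 of 119 values under alternatives on all 4 arrays kept their direction and their side of the limits. Much of this was fixed in advance. The other filters, the t-test, the eBayes trend, the stricter adjusted p and the replicate block leave the log2 difference as it was. Under these, no direction could change, and no probe within the 2-fold limits could pass them. The exceptions were Adora2b, which missed the adjusted p of the methods' t-test, and the dimmer Adk probe, whose value of -0.032 stands at 0.134 when the probes of the gene are averaged. With 1 array left out, 38 of 40 did, and Adora1 ranged from -0.486 to 0.096, the latter without OASIS replicate 1. The brighter Ada probe ranged from 2.10 to 2.31, the dimmer from 1.78 to 2.15 and Adora2b from 1.19 to 2.93. Of the listed genes, Alpl ranged from -0.487 to 0.229 (without Venus replicate 1) and was 0.158 without OASIS replicate 2, and Entpd5 ranged from -0.042 (without OASIS replicate 1) to 0.168.

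The counts moved most with the background correction and the test. Normexp, on median spot intensities, called 653 genes higher and 137 lower and 973 probes higher, where the main comparison gave 1014, 302 and 1861. Of the listed genes it left 8 higher and 0 lower. The methods' t-test called 334 and 66 genes and 550 probes, 1 of the 10 genes (Ada), and 1 listed gene higher and 0 lower. No filter on dim probes and a filter on all 4 arrays also left 0 listed genes lower, of which the latter did not test Enpp3. With the replicate block, 1018 genes were higher and 327 lower, 2 of the 10 genes were past the limits and 10 listed genes were higher. It changed no call of the 10 genes. Same-numbered deviations correlated at 0.2587, and the labels do not say that a number marks a shared batch. Leaving out 1 array gave 988 to 1244 genes higher, 279 to 474 lower (the highest without OASIS replicate 2) and 1799 to 2263 probes higher, 2 to 3 of the 10 genes (Pnp added without OASIS replicate 2), and 8 to 11 listed genes higher and 0 to 1 lower. The share of higher calls among genes was 77.1% and ranged from 72.4% to 83.5%, and the median of all genes from -0.0775 to -0.0273. With 1 array left out, the single array of its group was taken to vary as much as the pair of the other group. Low signal over background leaves Entpd1 and Adora3 without a measured difference.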

Other observations

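The deposited table assigns 136 genes to the purine metabolism pathway of KEGG, a set that was looked up once values were known. Of these, 103 met the filter, 9 were past the limits of the study higher with OASIS and 1 lower in limma, beside 6.21% and 1.85% of all genes, and the median log2 difference was 0.038. Beside Ada and 5 genes described above, 4 further genes were called. Papss2, for the enzyme that makes the sulphate donor of sulphation, gave -1.32 and -0.86 with Venus and 3.72 and 3.53 with OASIS, a log2 difference of 4.71 (standard error 0.19, limma adjusted p = 0.0019). Pde8b, for a phosphodiesterase that breaks down cyclic AMP, was at background on both Venus arrays and was at least 8.43-fold higher with OASIS (limma adjusted p = 0.0019). Like Entpd8 it entered the comparison through the OASIS arrays alone, and Enpp3 through the Venus arrays alone, so that some difference was built in. Pde3b, for a further cyclic nucleotide phosphodiesterase, rose by 1.14 (standard error 0.15, limma adjusted p = 0.013). Pgm2, in band qC6 of chromosome 4, rose by 1.13 (standard error 0.12, limma adjusted p = 0.00808).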
